A study of Mus musculus with 3 samples.

Results

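The genes described here encode 6 enzymes that the liver uses to make cholesterol: Hmgcs1, Idi1, Fdps, Fdft1, Sqle and Cyp51. They were chosen by gene symbol, and every probe set annotated to 1 of these symbols was kept apart, which gave 9 probe sets of the 12488 on the array. Fdps had 4 probe sets and each of the other genes had 1.

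Signals came from 3 Affymetrix mouse expression arrays hybridised with liver RNA of homozygous apoE knockout male mice on a C57BL/6JxOLA129 background, 1 array for each diet. The mice were 3 months old at assignment and ate their diet for 12 weeks, and all groups shared the loss of apolipoprotein E, which raises plasma cholesterol and leads to atherosclerosis. The control group (10 mice assigned) received 1.0% by weight linoleic acid, and the other groups received the same amount of a conjugated linoleic acid (CLA), either c9,t11-CLA (10 mice) or t10,c12-CLA (9 mice). The design text describes semi-purified diets with 30% of the energy from fat, the sample labels a western diet, and this difference was not resolved. Whether an array held RNA of 1 mouse or of a pool was not stated. No wild-type liver and no second array of any diet were analysed here, so no difference below has a replicate check, a test or a p-value.

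Cholesterol is built from acetyl units in the cytosol and the endoplasmic reticulum. Hmgcs1 makes HMG-CoA, from which mevalonate is formed. Idi1 interconverts the isoprenoid building blocks made from mevalonate, Fdps joins them to farnesyl pyrophosphate, and Fdft1 condenses farnesyl pyrophosphate to squalene. Sqle, a rate-controlling oxygenase, epoxidises squalene, and Cyp51 demethylates lanosterol, the first sterol with a closed ring system. When cells are short of sterol, SREBP proteins leave the endoplasmic reticulum and activate these genes through sterol regulatory elements that often lie near binding sites of the factors NF-Y and Sp1 in the promoters.

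Because shared control of these promoters is the reason to read the genes as a group, the promoters that could be matched are shown first. RefSeq promoter windows of assembly GRCm38.p6 were matched by symbol for 3 of the 6 genes, Hmgcs1, Idi1 and Cyp51. The 250 bases before each annotated start are printed 5′ to 3′ along the gene, with capitals on every match to the motif letters searched on both strands.

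Hmgcs1, chr13:119690101-119690350, plus strand: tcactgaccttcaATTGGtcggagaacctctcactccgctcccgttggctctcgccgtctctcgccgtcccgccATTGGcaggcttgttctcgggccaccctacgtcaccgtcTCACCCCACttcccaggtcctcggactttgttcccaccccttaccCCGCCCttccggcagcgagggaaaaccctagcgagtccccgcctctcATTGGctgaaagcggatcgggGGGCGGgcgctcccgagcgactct
Idi1, chr13:8885356-8885605, plus strand: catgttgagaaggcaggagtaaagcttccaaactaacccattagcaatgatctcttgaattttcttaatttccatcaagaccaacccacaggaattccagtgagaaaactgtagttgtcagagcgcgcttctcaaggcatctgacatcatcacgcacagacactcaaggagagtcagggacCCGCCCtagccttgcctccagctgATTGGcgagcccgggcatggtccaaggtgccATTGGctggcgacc
Cyp51, chr5:4104698-4104947, minus strand: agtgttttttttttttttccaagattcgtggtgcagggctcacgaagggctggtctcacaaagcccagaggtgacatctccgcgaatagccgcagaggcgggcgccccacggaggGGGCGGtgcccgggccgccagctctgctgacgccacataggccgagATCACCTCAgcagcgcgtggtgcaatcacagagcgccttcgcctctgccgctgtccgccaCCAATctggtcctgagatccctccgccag

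The letters TCACNCCAC and ATCACNNCA stood for forms of the sterol regulatory element, CCAAT for the NF-Y site and GGGCGG for the GC box that Sp1 binds. The Hmgcs1 window held TCACCCCAC, 137 to 129 bases before the start, with 3 NF-Y letter matches and 2 GC boxes. The Cyp51 window held ATCACCTCA, 89 to 81 bases before the start, with 1 NF-Y match and 1 GC box. The Idi1 window held 2 NF-Y matches and 1 GC box and neither form of the sterol regulatory element, which says only that these letters were not in this window. No match overlapped another in the 3 windows. Of all 32851 windows in the table, 1.05% held TCACNCCAC, 2.30% held ATCACNNCA, 33.85% held CCAAT and 32.74% held GGGCGG in the same 250 bases. A letter match is a description of the sequence and does not show binding.

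All values below are MAS5 signals, hybridisation intensities on a linear scale that can be compared between arrays for a given probe set but not between probe sets. The 2%-trimmed mean was 1501 on every array, and the median signal was 457.1 on control, 523.5 on c9,t11-CLA and 486.5 on t10,c12-CLA. The median of all signals together, 490.3, served as a floor, and a difference was measured only where both arrays were above it. Arrays scaled to equal medians instead moved the median log2 difference of all measured probe sets from 0.03 to -0.15 for c9,t11-CLA against control, and the share of higher among all 1.5-fold differences from 54.6% to 29.3%. That share went from 52.4% to 38.4% for t10,c12-CLA against control and from 46.3% to 60.6% between the isomers. The 9 bacterial spike probe sets differed from control by factors of 1.02 to 2.12 on c9,t11-CLA and of 0.90 to 1.26 on t10,c12-CLA. The 3′ to 5′ signal ratio of beta-actin, a sign of RNA integrity, was 1.40, 1.89 and 1.35 on control, c9,t11-CLA and then t10,c12-CLA, and that of Gapdh was 1.06, 0.98 and 0.78. Apoe itself gave 6570.3, 8695.0 and 4287.5 on its brighter probe set, whose position relative to the disruption is not stated, so that it does not check the genotype.

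Hepatocyte markers were bright, with 7, 8 and 7 of 8 probe sets above the floor on control, c9,t11-CLA and then t10,c12-CLA. Their summed signal was 142430, 319858 and 163628. Alb gave 28436.9, 101163.1 and 31244.3, while Ttr, the only one lower on c9,t11-CLA than on control, gave 17983.1, 9384.5 and 21644.9. Macrophage and Kupffer cell markers (10 genes, 16 probe sets) summed to 71305, 63326 and 96356, with 12, 11 and 12 probe sets above the floor. These markers did not share an order of the diets. C1qc gave 12400.3, 11141.0 and 23148.1, and Mpeg1 gave 7223.4, 7716.6 and 14332.3 by its brighter probe set. Lyz2 was highest on control, at 16171.2, 10087.2 and 11938.9 by its brighter probe set, and Clec4f was highest on c9,t11-CLA, at 4017.7, 7190.5 and 5227.6. Stellate cell markers (6 genes, 10 probe sets) summed to 35731, 27721 and 37789, and endothelial markers (5 genes) to 11588, 11801 and 14212. The brightest probe sets, those of Dcn and Eng, carry most of these sums, and some dimmer ones differed more. Of the dimmer probe sets, Col1a1 gave 940.5, 929.9 and 3747.1, Col1a2 gave 661.5, 283.5 and 1575.7, and Pecam1 gave 181.7, 1019.7 and 894.2. A second probe set of Col1a1 gave 1442.5, 1496.0 and 2510.7, and that of Col1a2 was nearly level at 4815.1, 4150.9 and 4505.1. Des, also a stellate cell marker, was lowest on t10,c12-CLA, at 698.9, 768.0 and 351.9. Kdr, an endothelial marker, was nearly level at 716.1, 690.8 and 683.7. All 4 bile duct and both adipocyte probe sets lay below the floor on every array, and the 2 erythroid probe sets summed to 36260, 36547 and 37452. The part of these differences in the results below was not tested, and in liver pieces fewer cells of a type cannot be told apart from less RNA per cell.

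Of the 9 probe sets of the 6 enzymes, 4 were above the floor on every array: Hmgcs1 94325_at, Fdps 99098_at, Fdps 160424_f_at and Fdft1 97518_at. Sqle was above it on the t10,c12-CLA array only, and Cyp51, Idi1 and the remaining 2 Fdps probe sets on none. The 4 measured probe sets stand for 3 genes, and the Fdps pair shares a target gene, so these counts are not counts of independent observations.

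**Figure D1:**
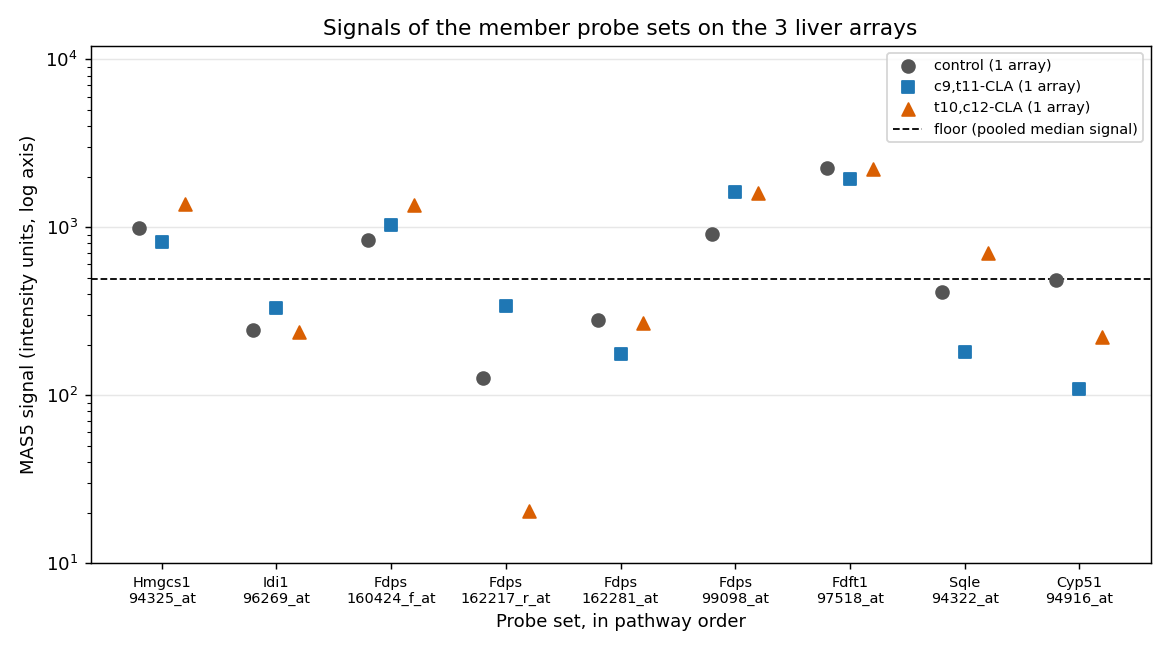
MAS5 signal (log axis) of the 9 probe sets of the 6 enzymes in pathway order, with 1 point per array for the control (circle), c9,t11-CLA (square) and t10,c12-CLA (triangle) diets and a dashed line at the floor of 490.3. Both brighter Fdps probe sets are lowest on control, Fdft1 is nearly level, and Sqle crosses the floor on t10,c12-CLA alone.

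Hmgcs1, the cytosolic HMG-CoA synthase, read 995.5 on control, 812.6 on c9,t11-CLA and 1379.6 on t10,c12-CLA. It was lowest on c9,t11-CLA and highest on t10,c12-CLA, with control between them. The log2 difference was -0.29 for c9,t11-CLA against control, 0.47 for t10,c12-CLA against control and 0.76, or 1.70-fold higher, for t10,c12-CLA against c9,t11-CLA.

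Fdps, the farnesyl pyrophosphate synthase, was higher on both CLA diets by its 2 brighter probe sets. Probe set 99098_at gave 916.4 on control, 1617.6 on c9,t11-CLA and 1601.1 on t10,c12-CLA. The CLA arrays were thus level with each other, 1.77-fold and 1.75-fold above control. Probe set 160424_f_at, whose suffix marks possible cross-hybridisation within a family of sequences, gave 839.3, 1036.3 and 1355.9 in the same order. By this probe set the order was graded, with log2 differences from control of 0.30 on c9,t11-CLA and 0.69 on t10,c12-CLA.

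The other 2 Fdps probe sets were below the floor on every array. Probe set 162281_at gave 278.7, 176.1 and 267.3. Probe set 162217_r_at gave 127.0, 340.5 and 20.5, and its suffix also marks a limited choice of probes. At such signals no order of the diets was read.

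Fdft1, the squalene synthase, was the steadiest of the measured probe sets, at 2245.4 on control, 1946.3 on c9,t11-CLA and 2222.7 on t10,c12-CLA. Its highest signal was 1.15 times its lowest, against 1.62 to 1.77 times for the other 3 measured probe sets. Its log2 differences were -0.21 and -0.01 from control and 0.19 between the isomers.

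Sqle, the squalene epoxidase, gave 412.3 on control, 179.6 on c9,t11-CLA and 699.9 on t10,c12-CLA. Against the floor its t10,c12-CLA signal was at least 1.43-fold above either of the other diets, while control and c9,t11-CLA could not be ordered because both were below the floor. Cyp51, the lanosterol demethylase, gave 485.7 on control, just under the floor, 109.0 on c9,t11-CLA and 221.6 on t10,c12-CLA. Idi1, the isoprenoid isomerase, gave 244.7, 330.2 and 238.4. No fold is given for either gene.

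On the c9,t11-CLA diet the measured enzymes thus did not share a direction. Fdps was above control on both measured probe sets, and Hmgcs1 and Fdft1 were below. The median log2 difference over the 4 probe sets was 0.05, beside 0.03 over all 4932 measured probe sets. A single probe set, Fdps 99098_at, was at least 1.5-fold higher and none was 1.5-fold lower, where 13.3% of all measured probe sets were 1.5-fold higher and 11.1% were 1.5-fold lower. None was 2-fold different, and 6.00% of all measured probe sets were. The sign of the median depended on the scaling, being -0.15 with equal medians and -0.02 after quantile normalization, on the floor, being -0.21 with a lower or a higher one, and on leaving out Fdps, at -0.25. It was also -0.21 with the brightest probe set of each gene, with the mean over probe sets of a gene, and without marked probe sets.

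On the t10,c12-CLA diet 3 of the 4 measured probe sets were above control and the remaining one, Fdft1, stood at -0.01. The median log2 difference of the 4 was 0.58, beside -0.00 over all 5037 measured probe sets, of which 2496 were above control. Both Fdps probe sets were at least 1.5-fold higher and none was 1.5-fold lower, where the shares over all measured probe sets were 9.65% and 8.76%. None was 2-fold different, against 4.05% of all measured probe sets. Without Fdps no probe set remained past 1.5-fold and the median over 2 probe sets was 0.23. With a lower floor, which let in dimmer probe sets, the median over 8 probe sets was also 0.23. The control array is shared by both comparisons, so a low control signal of Fdps enters each of them.

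Among all measured probe sets, Fdps 99098_at lay at percentile 93.8 of the log2 differences from control for c9,t11-CLA and at 95.8 for t10,c12-CLA. Fdps 160424_f_at lay at percentiles 71.0 and 93.3. Hmgcs1 lay at percentiles 25.3 and 86.4, and Fdft1 at 30.7 and 48.9. A spread for a single log2 difference was taken from pairs of probe sets of the same gene, and was 0.50 (SD, 537 pairs) for c9,t11-CLA against control, 0.40 (576 pairs) for t10,c12-CLA against control and 0.51 (563 pairs) between the isomers. Fdps 99098_at differed from control by 1.6 times this spread on c9,t11-CLA and 2.0 times on t10,c12-CLA, and Fdps 160424_f_at by 0.6 and 1.7 times. Hmgcs1 differed between the isomers by 1.5 times this spread. This spread holds measurement error and probe design and not the variation between mice.

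**Figure D2:**
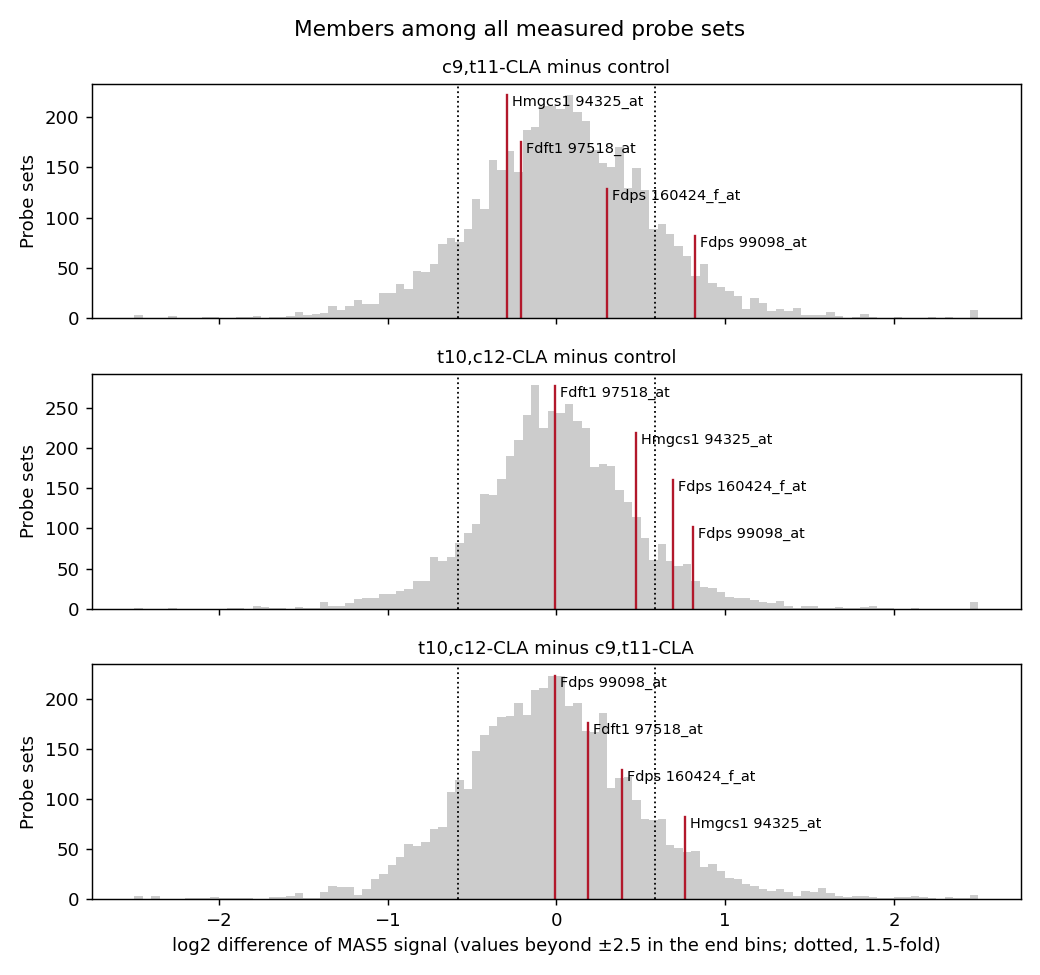
Number of probe sets (vertical axis) by log2 difference of MAS5 signal (horizontal axis) for all measured probe sets in each comparison, with red lines at the 4 measured probe sets of Hmgcs1, Fdps and Fdft1 and dotted lines at 1.5-fold. The farthest out are Fdps 99098_at at 0.82 and 0.81 in the comparisons with control, at percentiles 93.8 and 95.8. Between the isomers it is Hmgcs1 at 0.76, at percentile 93.0.

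The isomers, which carry the conjugated double bonds at different positions and with different geometry, were compared directly at the same dose and time. Of the 9 probe sets, 4 were measured on both CLA arrays, and 3 of them were higher on t10,c12-CLA. Over all 5017 measured probe sets, 2290 were higher on t10,c12-CLA. Sqle had only a bound, 1.43-fold or more in favour of t10,c12-CLA. Of the 4, Hmgcs1 was the only one at least 1.5-fold higher and none was 1.5-fold lower, where 11.3% and 13.2% of all 5017 measured probe sets were. None was 2-fold different, against 6.08% of all. The median log2 difference was 0.29, beside -0.05 over all measured probe sets. Fdps 160424_f_at stood at 0.39 and Fdps 99098_at at -0.01, 0.8 and 0.0 times the spread between probe sets of a gene. With 1 array per diet no interval of these differences can be given, and values near 0 do not show that the isomers acted alike.

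Background shares at like brightness were similar. Among probe sets whose mean signal lay between 1062.6 and 2138.1, the range of the 4 measured ones, 14.2% were 1.5-fold higher on c9,t11-CLA than on control, 10.1% on t10,c12-CLA than on control and 11.7% on t10,c12-CLA than on c9,t11-CLA. The shares 1.5-fold lower were 11.9%, 9.08% and 13.9% in the same order.

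The other enzymes of the pathway, from a fixed list, had 18 probe sets with 1 gene symbol, for 12 genes. Of these, 7 probe sets were measured in each comparison. On c9,t11-CLA against control 1 of the 7 was 1.5-fold higher and 2 were 1.5-fold lower, beside 13.3% and 11.1% of all measured probe sets, with a median of 0.15. On t10,c12-CLA against control 1 was 1.5-fold higher and none lower, beside 9.65% and 8.76%, with a median of -0.11. Between the isomers none was 1.5-fold different, beside 11.3% higher and 13.2% lower, and the median was -0.09. Above the floor on only the brighter array were 3 higher and 1 lower of the 18 probe sets on c9,t11-CLA against control. These counts were 1 and 1 on t10,c12-CLA against control, and 1 and 3 between the isomers. Over all 10833 probe sets with 1 gene symbol they were 814 and 507, 529 and 402, and 549 and 729 in the same order. Tm7sf2, a sterol reductase that acts after Cyp51, was the measured gene at least 1.5-fold higher on each diet, at 1459.0 on control, 2510.4 on c9,t11-CLA and 2518.6 on t10,c12-CLA by probe set 92437_at. That is nearly the profile of Fdps 99098_at, but a second Tm7sf2 probe set, 95383_at, gave 1727.3, 1920.7 and 1449.0. Nsdhl, a sterol dehydrogenase of the same stage, was also above control on both diets by 2 of its 3 probe sets. Probe set 98631_g_at gave 753.5, 1119.5 and 1049.4, and 98630_at gave 363.6, 686.1 and 804.9, at least 1.40-fold higher on c9,t11-CLA and at least 1.64-fold on t10,c12-CLA. The remaining one, 93868_at, was below the floor throughout.

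Lower on c9,t11-CLA were Hsd17b7, a sterol ketone reductase, and Sc5d, the lathosterol desaturase. Hsd17b7 gave 1095.5 on control, 675.8 on c9,t11-CLA and 450.5 on t10,c12-CLA, which is at least 2.23-fold lower on t10,c12-CLA than on control. Sc5d gave 985.0, 562.7 and 777.9 by probe set 102768_i_at, and 593.1, 316.0 and 567.1 by 102769_f_at, both with suffixes that mark limits of the probe design. Mvk, the mevalonate kinase, stood at 0.17 and -0.11 against control, and Ebp, a sterol isomerase, at -0.13 and -0.47. The pathway as a whole, 11 measured probe sets, had a median of 0.15 on c9,t11-CLA and -0.01 on t10,c12-CLA against control, and 0.00 between the isomers.

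**Figure D3:**
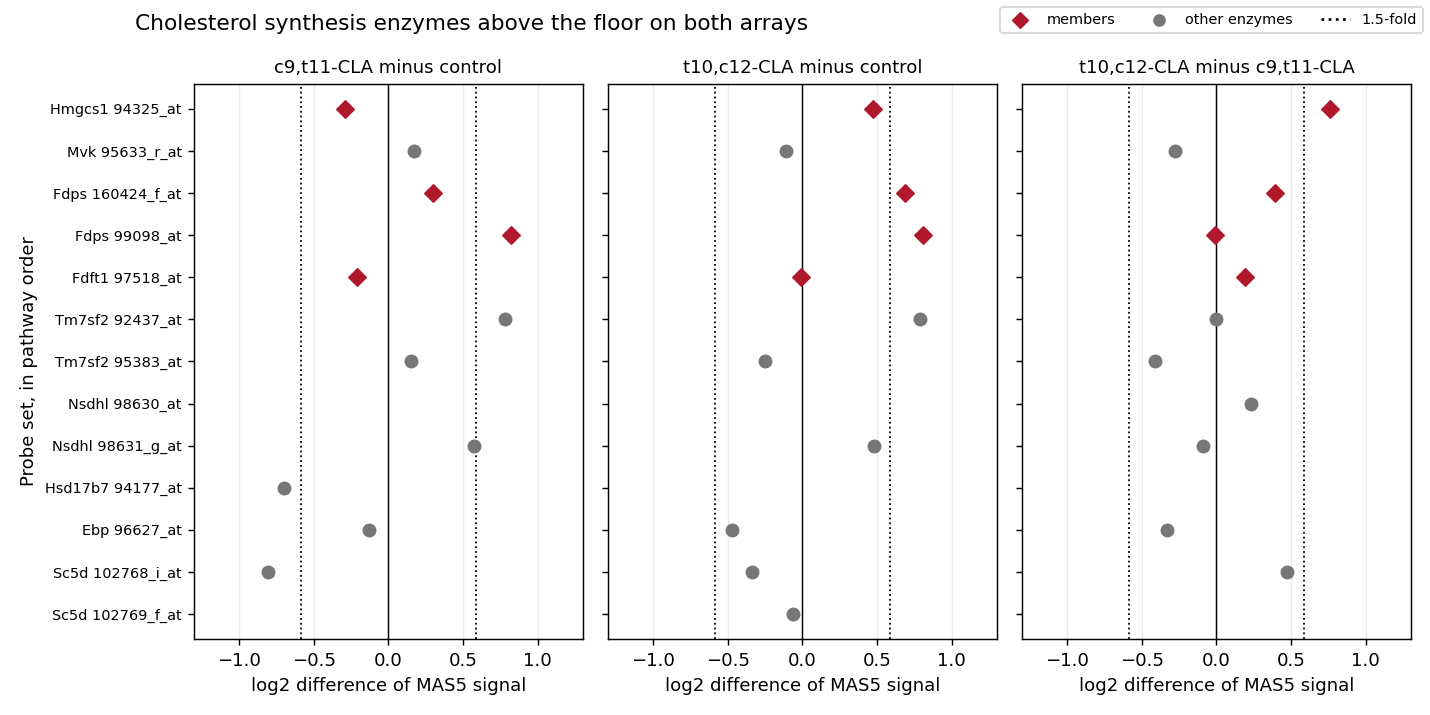
Log2 difference of MAS5 signal (horizontal axis) for each cholesterol synthesis probe set that was above the floor on both arrays, in pathway order from top to bottom, with the 6 enzymes described here as red diamonds, the other enzymes as grey circles and dotted lines at 1.5-fold. Points lie on both sides of 0 in every comparison, and the diamonds past the dotted line are Fdps against control and Hmgcs1 between the isomers.

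Of the listed genes that sense sterol and process SREBP, 3 had a probe set with 1 gene symbol, the only kind counted. Srebf1, which encodes the SREBP that favours fatty acid genes, gave 6289.6 on control, 7548.8 on c9,t11-CLA and 7091.5 on t10,c12-CLA. Mbtps1, the first protease to cut SREBP, gave 1552.0, 2447.9 and 2171.9, 1.58-fold and 1.40-fold above control. Insig1, which retains SREBP in the endoplasmic reticulum and is itself an SREBP target, was below the floor throughout, at 130.8, 55.7 and 113.5. Of 6 measured probe sets for cholesterol uptake and transfer, Lipa alone differed by 1.5-fold from control, at 2422.1, 1236.0 and 3636.6. Lipa, the lysosomal acid lipase that frees cholesterol from its esters, was 1.96-fold lower on c9,t11-CLA and stood at a log2 difference of 0.59 on t10,c12-CLA, where 11.1% of all measured probe sets were 1.5-fold lower and 9.65% were 1.5-fold higher in those comparisons. Its order of diets was that of Hmgcs1. Of the probe sets of this list above the floor on 1 array only, Vldlr 160865_at gave 333.0, 976.8 and 275.0, at least 1.99-fold higher on c9,t11-CLA than on control, and Stard3 162228_f_at gave 395.6, 1037.0 and 331.1, at least 2.12-fold higher. A brighter Stard3 probe set gave 2138.3, 2310.0 and 2427.6, and a dimmer Vldlr probe set was below the floor throughout.

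The 4 measured probe sets of the enzymes did not follow a common profile over the 3 arrays. Each log2 signal was centred on its own mean, and the distance of a probe set from the median profile of the 4 was taken as the measure of likeness, the straight-line distance over 3 arrays. The median profile was -0.21 on control, -0.09 on c9,t11-CLA and 0.30 on t10,c12-CLA. Fdps 160424_f_at was nearest to it at 0.152, followed by Hmgcs1 at 0.319, Fdft1 at 0.372 and Fdps 99098_at at 0.500. The nearest probe sets of other genes were those of Gnb2 at 0.012, Pcyox1 and Nudt4 at 0.015, Clptm1 at 0.022 and 4833439L19Rik at 0.028. Of the 4721 probe sets above the floor on all arrays, 332 outside the 6 genes lay within 0.2. Of the 4, which themselves define the median profile, 1 lay as near. The 332 were picked by this distance, so no comparison of their nearness with that of the 4 is drawn.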

How the data were processed

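Liver RNA on 3 arrays was analysed. The deposited values are MAS5 signal intensities per probe set on a linear scale, per the submitters' processing notes. The MAS5 version, scaling target and detection calls are not given in the sources used here. Equal trimmed means show that the arrays had been scaled alike. Of 12488 probe sets, 66 were array controls, 10833 had 1 gene symbol, 396 several and 1193 none in the annotation used. Symbols were updated by Entrez identifier through RefSeq GRCm38.p6 (10817 matched).

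Signals were not rescaled. The floor was the pooled median. A difference was the log2 ratio of 2 signals above the floor. With 1 signal above it, the bright signal over the floor gives at least N-fold. The fixed sizes were 1.5-fold and 2-fold. No test was possible, and the number of arrays limits the precision. The rule for named genes took all probe sets of the 6 enzymes and the 5 nearest profiles, and allowed members of fixed lists past 1.5-fold and a few fixed regulators. Mvk, Ebp, Srebf1, Acly, Gpam and Abca1 were named after their values were seen. The genes and lists were chosen with earlier results of these data known. Probe sets of several genes or none were left out, and some genes of the fixed lists are not reported here. Alternatives were 2 other scalings, floors at the 25th and 75th percentile, a pseudocount of 50, other ways to combine probe sets, leaving out marked probe sets and leaving out each gene. The brightness range was added after seeing the data. Python 3.11.15, numpy 2.4.6, pandas 2.3.3 and matplotlib 3.10.9 were used. The counting was tested on simulated data with 2-fold changes in bright probe sets and little noise. That checks the counting code and not how reliable a 1.5-fold difference is in these data.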

Additional observations from a re-analysis of the deposited data

How the results depend on the processing

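Under the 2 other scalings and the pseudocount, the log2 difference of each measured probe set of Hmgcs1, Fdps and Fdft1 moved by less than the spread between probe sets of a gene. The other floors and leaving out marked probe sets only decide whether a probe set is kept. They cannot change its difference, so they do not check it. Fdps 99098_at ranged from 0.62 to 0.82 on c9,t11-CLA and from 0.72 to 0.81 on t10,c12-CLA against control, and Hmgcs1 from 0.73 to 0.87 between the isomers. The counts of probe sets past 1.5-fold were less stable, since 4 probe sets were measured. On c9,t11-CLA against control the count of 1 became 3 with a floor of 144.9 (25th percentile), and 0 with one of 1510.9 (75th percentile), with the mean over probe sets of a gene, or without Fdps. On t10,c12-CLA against control the count of 2 became 4 with the lower floor, 0 with the higher floor or without Fdps, and 1 with the brightest probe set of each gene, with the mean over probe sets, or without marked probe sets. There the median fell from 0.58 to 0.23 with the lower floor, over 8 probe sets, of which 3 were 1.5-fold higher and 1 was 1.5-fold lower. It became -0.01 with the higher floor, which left 1 probe set, Fdft1. Between the isomers the count of 1 became 3 with the lower floor and 0 with the higher floor or without Hmgcs1.

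With the lower floor, dim probe sets entered: Sqle stood at -1.20 and 0.76 against control and at 1.96 between the isomers, Cyp51 at -1.13 on t10,c12-CLA against control, and Fdps 162281_at at -0.66 on c9,t11-CLA. Whether such signals exceed background cannot be told without detection calls.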

Other observations

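A list of the sterol receptor gene Nr1h3 and genes of cholesterol efflux and esterification was lower on c9,t11-CLA than on control. This held in 5 of 5 measured probe sets, which stand for 4 genes. Of all 4932 measured probe sets, 2332 were lower. The median log2 difference of the 5 was -0.59, beside 0.03 over all measured probe sets. Of the 5, 3 were at least 1.5-fold lower, where 11.1% of all measured probe sets were. Abcg1, a cholesterol exporter, gave 3622.0 on control, 2171.2 on c9,t11-CLA and 3867.6 on t10,c12-CLA. Lcat, the plasma enzyme that esterifies cholesterol on lipoproteins, gave 30190.5, 19869.0 and 19171.3, lower on both CLA diets, while a second probe set, 161759_r_at, gave 127.9, 500.7 and 408.3. Nr1h3, the sterol-sensing nuclear receptor LXR alpha, gave 5894.0, 3916.2 and 4837.3. Its log2 difference of -0.59 on c9,t11-CLA is the median of the 5. Abca1, also of this list, stood nearer to control on c9,t11-CLA, at -0.26 by probe set 94354_at and -0.06 by 97198_at. On t10,c12-CLA the median of this list was -0.29, with 1 probe set, that of Lcat, 1.5-fold lower, beside 8.76% of all.

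Among the fatty acid synthesis targets of SREBP, Me1, the malic enzyme that supplies NADPH, gave 2028.8 on control, 950.7 on c9,t11-CLA and 3834.3 on t10,c12-CLA, and was the one gene of the list 2-fold lower on c9,t11-CLA. Of the other members, Fasn, Thrsp, Elovl6 and Acly were above control on both CLA diets. Fasn, the fatty acid synthase, gave 1963.0, 2625.8 and 3593.8, Thrsp, a lipogenic regulator, 3979.3, 5999.0 and 5818.0, and Elovl6, a fatty acid elongase, 420.1, 767.6 and 703.2 by its brighter probe set. Acly stood at 0.20 and 0.08, and Gpam at -0.03 and 0.36. The median log2 difference of the list was 0.20 on c9,t11-CLA and 0.54 on t10,c12-CLA against control, over 7 probe sets. On c9,t11-CLA 2 of the 7 were 1.5-fold higher and 2 were 1.5-fold lower, beside 13.3% and 11.1% of all measured probe sets. On t10,c12-CLA 2 were higher and 1 was lower by this size, beside 9.65% and 8.76%. Scd1, the stearoyl-CoA desaturase, was 1.54-fold higher by probe set 94056_at and 1.51-fold lower by 94057_g_at on c9,t11-CLA, so its direction was not settled.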
